A study of Bos taurus with 35 samples.

Results

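Zinc finger transcription factor genes were followed in bovine *longissimus thoracis* (*LT*) muscle over 72 h *post-mortem*. A gene was a member when its symbol on the study's lists of genes that differed from 0 h began with ZNF, ZFP, ZBTB, ZSCAN, ZKSCAN, or KLF followed by a digit. The copy of those lists used here held 3640 genes, 3106 of them with a symbol, and lacked 257 entries of the list of genes lower at 72 h. This gave 98 genes of the 27607 in the count table. The members were 72 ZNF, 17 ZBTB, 4 KLF, 2 ZFP, 2 ZKSCAN genes and 1 ZSCAN gene. All were annotated as protein coding except *ZNF469*, annotated as a pseudogene. The lists were made by comparing each time point with 0 h in these same samples, so that the members' differences from 0 h are given below as descriptions, without tests.

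Muscle cores came from the left carcass side of 7 British × Continental crossbred heifers, each sampled at 5 time points. The sample named 0 h was taken 45 min after slaughter, and the later samples after 6 h, 24 h, 48 h and finally 72 h. Each time point therefore had 7 samples from the same 7 animals, and the carcasses hung in a drip cooler during that time. No unchilled carcass was sampled, so time, chilling and repeated sampling of a carcass cannot be told apart. The 35 mRNA libraries held 20568418 to 104275821 counts each (median 40133660). The lowest median correlation of a library with others of its time point, 0.968, was that of animal 206 at 72 h. As a check of the tissue, 3 of 10 muscle fibre markers carried a symbol, all of them called higher at 72 h and present on the lists for that reason. These were *CKM*, *TNNT3* and *TNNI2*, and their transcripts together made up 26870 to 32210 CPM (counts scaled to a common library size, adjusted by the trimmed mean of M-values) at 0 h. At 72 h they made up 45360 to 68220 CPM, so the ranges did not overlap. In such bulk samples, fewer cells of a type and less RNA per cell cannot be told apart.

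Most of these proteins carry repeats of the C2H2 zinc finger, a small loop of amino acids folded around a zinc ion, and read DNA sequence with those repeats. Many ZNF, ZFP and ZKSCAN proteins add a KRAB domain, which recruits the corepressor TRIM28 and through it the histone methyltransferase SETDB1. ZBTB proteins add a BTB domain, used to form dimers and bind corepressors such as NCOR1, and KLF proteins end in zinc fingers that bind GC-rich promoter sequences.

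Their transcripts were rare in muscle. Over all samples the members' mean level had a median of 3.96 CPM, against 9.04 CPM for the 14630 genes that passed the filter on low counts. All 98 members passed the filter, 10 of them with a mean below 1 CPM, 70 with 1 to 10 CPM and 18 with 10 CPM or more. *ZNF106*, an RNA-binding protein needed by motor neurons and muscle, had a mean of 879.6 CPM, the highest of the members.

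The lists held 88 members as lower than 0 h and 10 as higher at 1 or more time points. At 72 h, 82 were listed as lower and 10 as higher. The remaining 6 had no entry on the 72 h lists in this copy: *KLF2* and *ZNF467* were listed at 6 h, and *ZNF385B*, *ZNF469*, *ZNF660* and *ZNF814* at 48 h. Of these 6, *ZNF469* was called lower at 72 h in the refitted data described next. In the refitted data, a call needed a fold change of more than 1.5 and an FDR of less than 0.05, from the quasi-likelihood test of edgeR with adjustment after Benjamini and Hochberg. At 6 h, 2 members were called lower and 0 higher, where 0.185% and 0.349% of all genes tested were called. No member was called at 24 h by edgeR or by DESeq2 (6 higher and 29 lower members had an unadjusted p under 0.05, as had 23.0% of all genes tested), where 0.95% of all genes were called lower and 0.725% higher. At 48 h, 31 members were called lower (background 6.3%) and 2 higher (2.96%). At 72 h, 83 were called lower (15.4%) and 10 higher (9.8%). Of the members, 46 had all 72 h samples below all 0 h samples (10.1% of all genes tested did) and 4 had them all above (7.9%). The rule used these contrasts, so nothing is read from the members' shares. All time points share the 0 h samples.

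The 82 genes listed as lower at 72 h stood little below 0 h on the first day. The median of their log2 fold changes went from -0.08 at 6 h and -0.18 at 24 h to -0.48 at 48 h and then -0.83 at 72 h. The 10 listed as higher followed a mirrored course, with medians of 0.10, 0.20, 0.42 and 0.72. Summed over the 82 genes, the level was 1513 to 2060 CPM (median 1981) at 0 h and 563.0 to 1196 CPM (median 661.2) at 72 h. *ZNF106* accounted for most of that sum. Without it the median sum was 648.3 CPM at 0 h and 330.5 CPM at 72 h, and the ranges of 567.9 to 716.3 CPM and 284.3 to 469.7 CPM did not overlap either. The sum of the 10 genes listed as higher went from 159.9 to 224.7 CPM at 0 h to 253.2 to 380.6 CPM at 72 h.

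**Figure D1:**
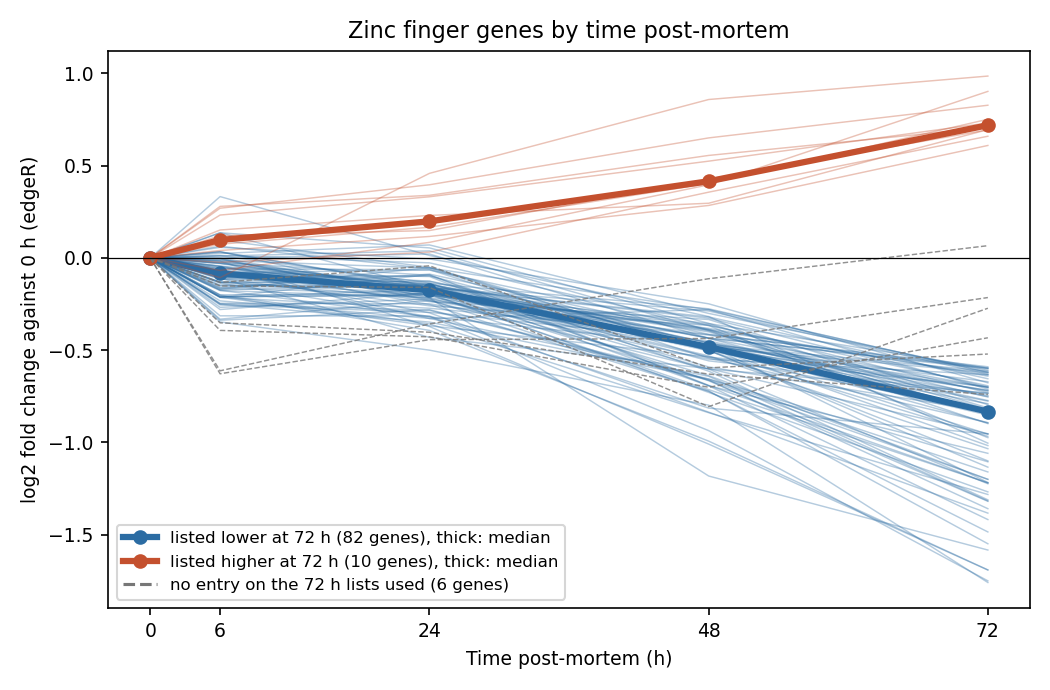
Log2 fold change against 0 h (y axis) by time *post-mortem* (x axis, h) for each of the 98 genes, 1 thin line a gene. The thick lines are the medians of the genes listed as lower (82, -0.83 at 72 h) and higher (10, 0.72 at 72 h), and the dashed lines are the 6 genes with no entry on the 72 h lists used.

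Among the 82, KLF genes included hormone- and growth factor-responsive regulators. *KLF9* (ENSBTAG00000016229), induced by glucocorticoids in many tissues, had 74.5 to 110.0 CPM (median 83.1) at 0 h and 21.7 to 50.2 CPM (median 36.5) at 72 h. All 7 animals were lower at 72 h, and no 72 h sample reached the lowest 0 h sample. Its log2 fold change was -1.36 (SE 0.12). *KLF12*, a repressor, went from 1.18 to 1.98 CPM at 0 h to 0.405 to 1.05 CPM at 72 h, with a log2 fold change of -1.13 (SE 0.14). *KLF11*, inducible by TGF-beta, differed least of these, with 22.5 to 54.8 CPM at 0 h and 13.6 to 33.3 CPM at 72 h, overlapping ranges and a log2 fold change of -0.62 (SE 0.09).

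Of the 17 ZBTB genes, 16 were listed as lower at 72 h, with log2 fold changes from -1.75 to -0.59 (median -0.79). *ZBTB6* (ENSBTAG00000039815) was the lowest. It had 2.11 to 3.32 CPM at 0 h and 0.640 to 1.21 CPM at 72 h, in non-overlapping ranges, and a log2 fold change of -1.75 (SE 0.18). *ZBTB44* followed at -1.55 (SE 0.20), with 13.7 to 20.6 CPM at 0 h and 2.85 to 12.0 CPM at 72 h. *ZBTB41* and *ZBTB34* both stood at -1.32 (SE 0.15 and 0.14) and *ZBTB26* at -1.22 (SE 0.16). For *ZBTB41* and *ZBTB34* the samples of 0 h and 72 h did not overlap, whereas for *ZBTB26* the highest 72 h sample, 1.261 CPM, lay just above the lowest 0 h sample, 1.247 CPM. At the other end, *ZBTB33* (Kaiso, a reader of methylated DNA) had 10.5 to 13.0 CPM at 0 h and 6.71 to 9.43 CPM at 72 h. Its log2 fold change of -0.59 (SE 0.07) was the smallest of the 16, yet its ranges did not overlap. The other 10 (*ZBTB1*, *ZBTB3*, *ZBTB5*, *ZBTB10*, *ZBTB11*, *ZBTB14*, *ZBTB21*, *ZBTB38*, *ZBTB39* and *ZBTB43*) lay between -1.10 and -0.60. *ZBTB38*, like *ZBTB33*, binds methylated DNA.

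Zinc finger genes often lie in clusters on the chromosome. In the order of protein coding genes of the RefSeq annotation (assembly ARS-UCD2.0, another build than the files'), 94 members were matched by symbol. There were 6 pairs of adjacent members: *ZBTB6* and *ZBTB26*, *ZBTB43* and *ZBTB34*, *ZBTB10* and *ZNF704*, *ZNF569* and *ZNF570*, *ZNF432* and *ZNF614*, and *ZNF316* and *ZNF12*. Next to some other gene with one of the prefixes lay 39 of the 94 members and 134 of the 313 other genes with these prefixes. Whether overlapping transcripts or near-identical paralogs shared reads was not tested, since no genome sequence was used here.

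The 58 ZNF genes listed as lower at 72 h had log2 fold changes from -1.76 to -0.60 (median -0.84). *ZNF10* (ENSBTAG00000039242), the gene whose human KRAB domain is widely used as a repressor in CRISPR interference, had 1.89 to 2.75 CPM (median 2.08) at 0 h and 0.461 to 0.873 CPM (median 0.601) at 72 h. It was lower in all 7 animals, and the ranges did not overlap. Its log2 fold change of -1.76 (SE 0.12) was the most negative of all members. *ZNF106* (ENSBTAG00000004079) had 864.8 to 1401 CPM (median 1311) at 0 h and 261.3 to 725.9 CPM (median 341.0) at 72 h, with a log2 fold change of -1.69 (SE 0.15). Every animal was lower, and the highest 72 h value, of animal 202, stayed below the lowest 0 h value.

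*ZNF641* had the same log2 fold change as *ZNF106*, -1.69 (SE 0.20), with 4.86 to 6.59 CPM at 0 h and 0.544 to 4.07 CPM at 72 h. *ZNF81* had a median of 0.499 CPM at 0 h and of 0.150 CPM at 72 h, and its log2 fold change of -1.58 (SE 0.27) rested on few reads. For *ZNF770* the 72 h range of 2.09 to 19.4 CPM overlapped that of 0 h, 13.1 to 27.7 CPM, although all 7 animals were lower and the log2 fold change was -1.48 (SE 0.18). *ZKSCAN1*, whose locus also gives rise to an abundant circular RNA, stood at -1.42 (SE 0.15). Among genes with a mean of at least 1 CPM, the next were *ZNF782* at -1.31 (SE 0.18), *ZNF445* at -1.28 (SE 0.12), *ZNF24* at -1.27 (SE 0.14), *ZNF248* at -1.22 (SE 0.15) and *ZNF518A* at -1.22 (SE 0.12). From *ZNF81* on, neighbours in this order differed by less than their standard errors. *ZNF445* is known for its part in maintaining genomic imprints. *ZKSCAN8*, *ZFP14*, *ZFP82* and *ZSCAN20* had log2 fold changes between -0.89 and -0.70.

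The other 48 ZNF genes had log2 fold changes from -1.38 (*ZNF793*) to -0.60. They were *ZNF112*, *ZNF12*, *ZNF148*, *ZNF19*, *ZNF214*, *ZNF217*, *ZNF287*, *ZNF316*, *ZNF317*, *ZNF318*, *ZNF322*, *ZNF35*, *ZNF367*, *ZNF398*, *ZNF41*, *ZNF432*, *ZNF436*, *ZNF449*, *ZNF451*, *ZNF471*, *ZNF512B*, *ZNF518B*, *ZNF548*, *ZNF554*, *ZNF557*, *ZNF569*, *ZNF570*, *ZNF572*, *ZNF606*, *ZNF609*, *ZNF614*, *ZNF621*, *ZNF623*, *ZNF629*, *ZNF646*, *ZNF652*, *ZNF654*, *ZNF667*, *ZNF689*, *ZNF697*, *ZNF7*, *ZNF704*, *ZNF713*, *ZNF75A*, *ZNF774*, *ZNF792*, *ZNF793* and *ZNF805*. Among these, *ZNF217* is known as an oncogene amplified in breast cancer, *ZNF148* (ZBP-89) binds GC-rich promoters, and *ZNF451* acts as a SUMO ligase.

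**Figure D2:**
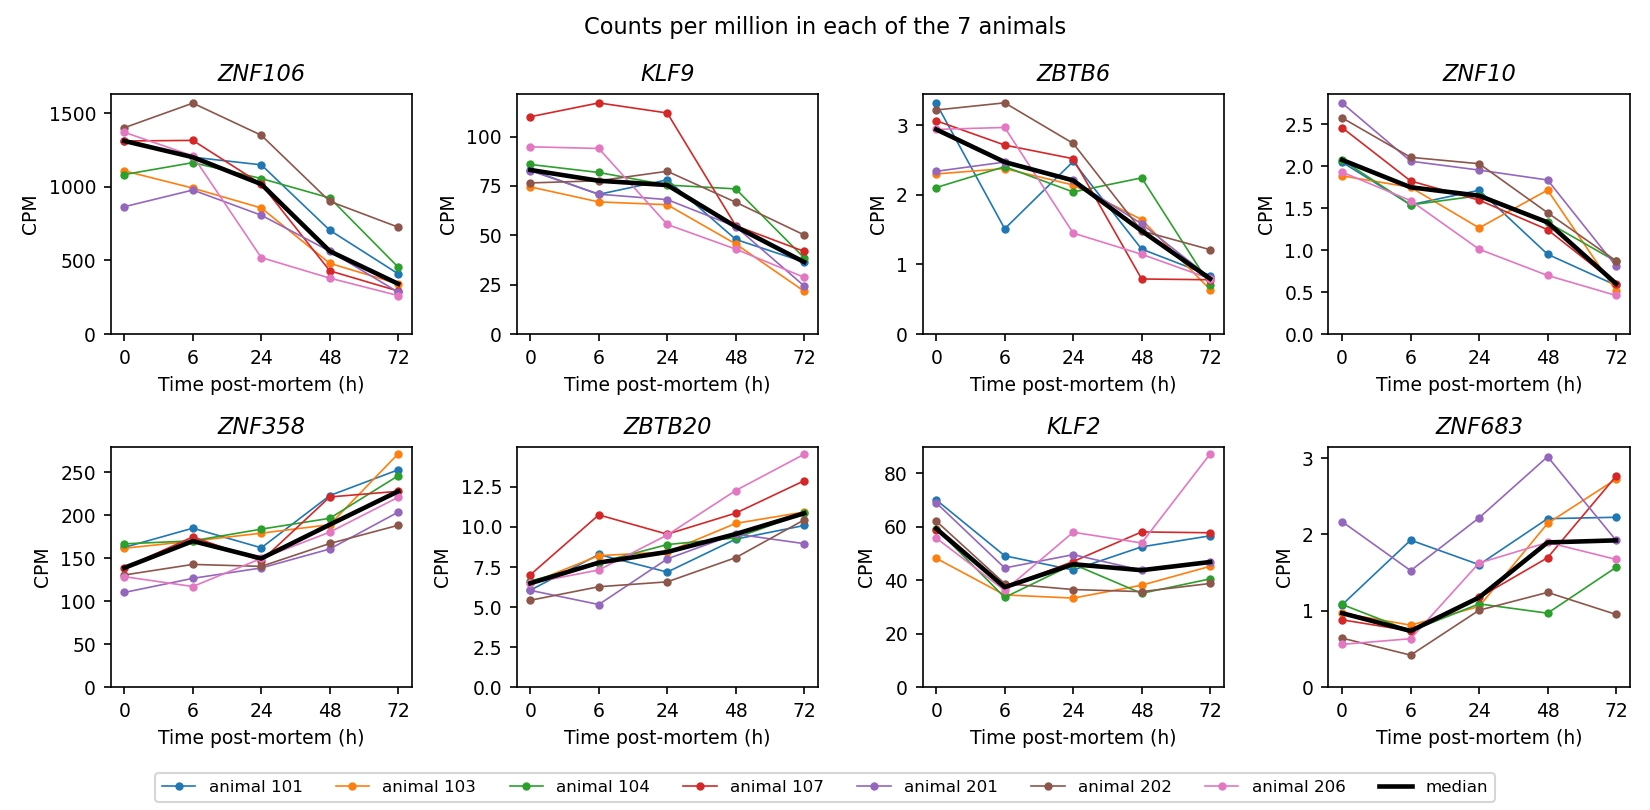
CPM (y axis, from 0, own scale for each gene) by time *post-mortem* (x axis, h) in each of the 7 animals, with the median in black, for 8 genes. *ZNF106*, *KLF9*, *ZBTB6* and *ZNF10* had non-overlapping ranges at 0 h and 72 h, *ZNF358* and *ZBTB20* lay above their 0 h range at 72 h, *KLF2* was lowest at 6 h, and *ZNF683* overlapped throughout.

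The 10 genes listed as higher at 72 h had log2 fold changes from 0.61 to 0.98. *ZNF358* (ENSBTAG00000046837) was the most abundant of them, with 110.3 to 166.8 CPM (median 138.9) at 0 h and 188.4 to 271.6 CPM (median 227.9) at 72 h. All 7 animals were higher and the ranges did not overlap, with a log2 fold change of 0.69 (SE 0.06). *ZBTB20*, a repressor and the only ZBTB member listed as higher, went from 5.43 to 7.01 CPM at 0 h to 8.96 to 14.5 CPM at 72 h. Its log2 fold change was 0.65 (SE 0.08) at 48 h and 0.83 (SE 0.08) at 72 h. *ZNF692* had 10.8 to 13.9 CPM at 0 h and 15.9 to 25.6 CPM at 72 h, with a log2 fold change of 0.73 (SE 0.08), and *ZNF575* stood at 0.75 (SE 0.08). These 4 genes were the members whose 72 h samples all lay above their 0 h samples.

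For the others in this direction the ranges overlapped. *ZNF580* stood at 0.90 (SE 0.11) and *ZNF74* at 0.71 (SE 0.09). *ZNF414*, *ZNF444* and *ZNF428* had log2 fold changes of 0.69 (SE 0.11), 0.66 (SE 0.09) and 0.61 (SE 0.10). Animal 206 had the highest 72 h sample of *ZNF414*, *ZNF444* and *ZNF428*, and without that animal their values were 0.57, 0.58 and 0.54, below the fold change threshold. It also had the highest 72 h sample of *ZNF580*, *ZNF74*, *ZNF692* and *ZBTB20*. Over the 10 genes its median change at 72 h was 1.12, and the next highest was 0.77, in animal 201. Leaving out any 1 animal left at least 7 members called higher at 72 h.

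*ZNF683* (Hobit), a factor of tissue-resident T and NK cells, had the largest log2 fold change in this direction, 0.98 (SE 0.20) at 72 h. It went from 0.562 to 2.17 CPM (median 0.970) at 0 h to 0.954 to 2.76 CPM (median 1.92) at 72 h, and 6 of 7 animals were higher. Of 15 markers of T and NK cells, 12 carried a symbol on the lists, and all 12 were called higher at 72 h. Their summed level was 9.58 to 16.7 CPM at 0 h and 19.4 to 26.3 CPM at 72 h, with *CD3E* at a median of 2.72 CPM at 0 h and 6.15 CPM at 72 h. Markers with a symbol were on the lists because they differed, and their part in the *ZNF683* result was not tested.

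The lists held 2 members as lower at 6 h. *KLF2* (ENSBTAG00000052504), a factor that endothelial cells raise under blood flow, had 48.2 to 70.0 CPM (median 59.3) at 0 h and 33.6 to 49.1 CPM (median 37.4) at 6 h. All 7 animals were lower, the highest 6 h sample lay just above the lowest 0 h sample, and the log2 fold change was -0.63 (SE 0.11). At 72 h its range was 38.8 to 87.2 CPM, and the log2 fold change against 0 h was -0.21 (SE 0.11). *ZNF467*, known for promoting adipogenesis, had 0.727 to 1.04 CPM at 0 h and 0.374 to 0.782 CPM at 6 h, with overlapping ranges. It was lower in all 7 animals, with a log2 fold change of -0.61 (SE 0.15). Without animal as a block, neither gene was called at 6 h. The adipocyte markers, of which 8 of 8 carried a symbol, summed to 161.8 to 461.7 CPM at 0 h and 120.7 to 652.4 CPM at 6 h, and none was called at 6 h. Their part in the *ZNF467* value was not tested. None of 10 endothelial markers carried a symbol, so that no such value stands beside *KLF2*.

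For these 2 genes the later samples were not used by the rule. From 24 h to 72 h *KLF2* differed by a log2 fold change of 0.23 (SE 0.11), which did not pass edgeR's quasi-likelihood test (adjusted p = 0.075, higher in 5 of 7 animals). *ZNF467* rose by 0.42 (SE 0.14, adjusted p = 0.013 by edgeR, higher in 6 of 7 animals), below the fold change threshold. Thus 0 of the 2 were called, where 4.43% of all genes tested were called higher and 11.9% lower. The 4 genes with an entry on the 48 h list but not on the 72 h list used had at most 3.52 CPM as their median at 0 h. From 24 h to 72 h, *ZNF660* differed by -0.48 (SE 0.19, adjusted p = 0.034 by edgeR) and *ZNF469* by -0.34 (adjusted p = 0.26), *ZNF385B* by -0.11 (adjusted p = 0.75) and *ZNF814* by -0.01 (adjusted p = 0.99).

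The 72 h lists compared 72 h with 0 h, so the course between 6 h, 24 h and 48 h did not place the 92 genes on them. Of the 92, however, 27 listed as lower and 2 listed as higher were also on a 48 h list. For these genes the 48 h samples were used by a list as well. From 6 h to 24 h, none of the 92 was called by edgeR or DESeq2, 1 higher and 3 lower genes had an unadjusted p under 0.05 (6.27% of all genes tested), and the lowest adjusted p was 0.55. Over all genes tested, 0.54% were called lower and 0.00684% higher in that step. The median log2 fold change was -0.08 over the 82 genes listed as lower and 0.09 over the 10 listed as higher.

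From 24 h to 48 h the members moved in the direction of their later listing. Of the 82 genes, 81 had a negative log2 fold change (median -0.33), the exception being *ZNF322* at 0.05, and all 10 genes listed as higher had a positive one (median 0.24). The median over all genes tested was -0.0016. At an FDR below 0.05 alone, 43 of the 82 fell, where 9.84% of all genes tested did, and 5 of the 10 rose, where 9.56% did. Of the 27 genes also on the 48 h list, 19 fell (70.4%), and of the 55 on the 72 h list only, 24 did (43.6%). The 5 that rose included *ZBTB20*, which was also on a 48 h list. Other genes chosen for a difference at 72 h shared such a step. Of the other genes on the same lists, 51.9% of those listed as lower fell and 39.4% of those listed as higher rose. No excess of the zinc finger genes is therefore read from these shares. With the fold change threshold, 6 of the 82 were called lower (7.32%), against 1.88% of all genes tested and 12.9% of the other genes listed as lower. None of the 92 was called higher (8 higher and 65 lower genes had an unadjusted p under 0.05, as had 33.5% of all genes tested), against 0.376%. These counts used animal as a block. Without it, 0 of the 92 passed the FDR threshold in this step. In the same step, 2 of 4 macrophage markers were called lower and 2 of 2 erythroid markers higher, and their part in this result was not tested. RNA integrity was not analysed here.

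The 6 called genes were *ZNF81*, *ZNF106*, *ZBTB6*, *ZBTB26*, *ZNF641* and *ZNF19*, all of which were also on the 48 h list. That list used their 48 h samples, so their adjusted p-values in this step are given as descriptions. Of the 55 genes listed as lower at 72 h only, 0 were called in this step. *ZNF106* had 519.3 to 1350 CPM (median 1018) at 24 h and 379.8 to 924.4 CPM (median 562.7) at 48 h, overlapping ranges in which every animal fell. Its log2 fold change was -0.64 (SE 0.15, adjusted p = 0.0051 by edgeR). *ZNF81* had the largest fold, -0.97 (SE 0.26, adjusted p = 0.013 by edgeR), at a median of 0.511 CPM at 24 h and 0.235 CPM at 48 h. This value rested on few reads: animal 206 had 0.0499 CPM at 48 h, and animal 103 went from 0.2065 to 0.2145 CPM. *ZBTB6* fell by 0.62 on the log2 scale (SE 0.17, adjusted p = 0.013 by edgeR, lower in 6 of 7 animals). Its neighbour *ZBTB26* fell by 0.60 (SE 0.16, adjusted p = 0.0099, lower in 7 of 7). *ZNF641* fell by 0.60 (SE 0.20, adjusted p = 0.032, lower in 7 of 7) and *ZNF19* by 0.59 (SE 0.16, adjusted p = 0.012, lower in 7 of 7). For no member did the samples of 24 h and 48 h separate without overlap, as they did in each direction for 0.164% of all genes tested.

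**Figure D3:**
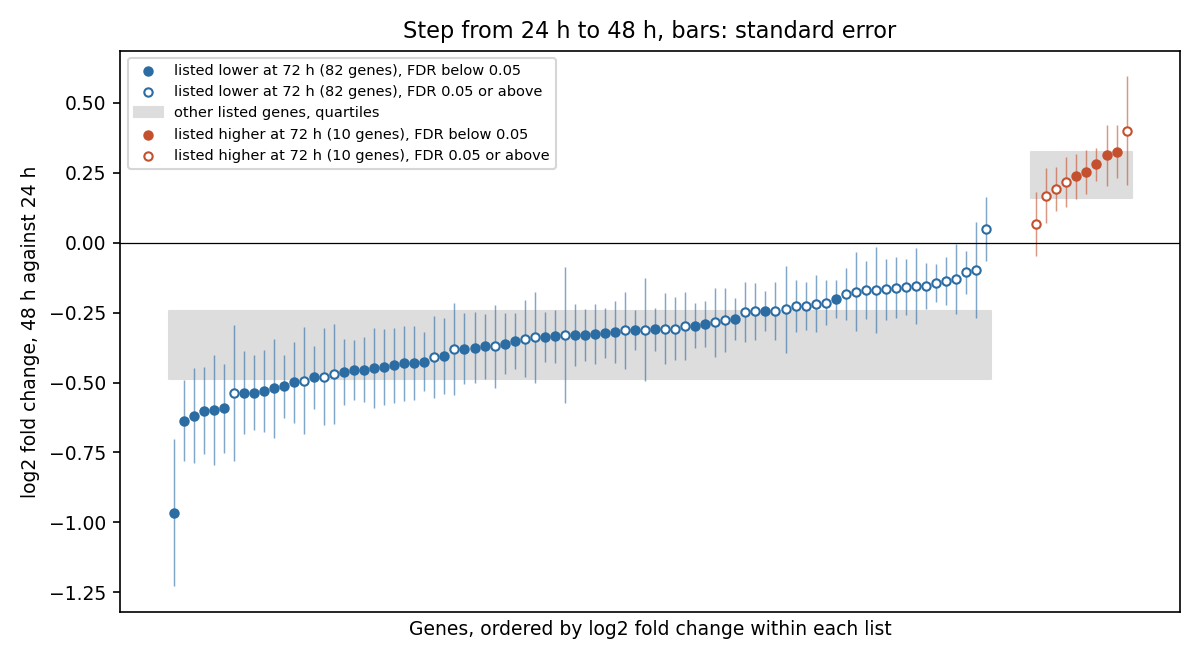
Log2 fold change of 48 h against 24 h (y axis) with its standard error for the 92 genes on the 72 h lists, ordered by value within the 82 listed as lower (left) and the 10 listed as higher (right). Filled points passed an FDR of 0.05 (43 and 5 genes), and grey bands span the quartiles of the other genes on the same lists.

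Below the fold change threshold, *ZNF518A* (-0.51, SE 0.11, adjusted p = 0.0044 by edgeR), *ZNF445* (-0.48, SE 0.11, adjusted p = 0.0062), *ZNF24* (-0.54, SE 0.14, adjusted p = 0.0087) and *KLF9* (-0.46, SE 0.12, adjusted p = 0.0094) fell in all 7 animals. *ZNF10*, lowest of all at 72 h, differed by -0.30 (SE 0.12, adjusted p = 0.077) in this step. These genes were also on a 48 h list, as were *ZBTB20* and *ZNF683* named below, so their adjusted p-values are descriptions too. By family, 11 of the 16 ZBTB genes, 27 of the 58 ZNF genes and 1 of the 3 KLF genes listed as lower passed the FDR threshold alone. Of the 5 ZFP, ZKSCAN and ZSCAN genes, 4 passed it. So did 51.9% of the other genes on that list and, falling, 9.84% of all genes tested. Differences between the families were not tested. In the other direction, *ZNF358* rose by a log2 fold change of 0.28 (SE 0.06, adjusted p = 0.0036) in all 7 animals. *ZNF444* rose by 0.32 (SE 0.09, adjusted p = 0.017), *ZNF580* by 0.31 (SE 0.11, adjusted p = 0.043) and *ZBTB20* by 0.25 (SE 0.08, adjusted p = 0.026), each in all 7 animals, and *ZNF575* by 0.24 (SE 0.08, adjusted p = 0.039) in 6 of 7. *ZNF683* had 0.40 (SE 0.19, adjusted p = 0.15).

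The size of the difference from 0 h varied between animals at the same time point. Each animal gave 1 library at each time point, so timing and a difference of that core or library cannot be told apart. The median change of the 82 genes from 24 h to 48 h, computed within each animal on the log2 scale, was -0.32 ± 0.21 (SD, n = 7) and ranged from -0.67 to -0.09, below 0 in all 7. For the 10 genes it was 0.24 ± 0.14 and above 0 in all 7. At 24 h, animal 206 had a median of -0.62 against its own 0 h sample, with 80 of the 82 genes lower, whereas the other animals had a median of -0.09. Animal 101 had a median of -0.28 at 6 h, with 75 of the 82 genes lower, and then a median change of 0.15 from 6 h to 24 h. In animals 101 and 107 the median against 0 h was -0.12 and -0.05 at 24 h and -0.68 and -0.71 at 48 h. Animals 104 and 202 stood at -0.17 and -0.26 at 48 h. At 72 h the median was -0.86 ± 0.22 (SD, n = 7) and ranged from -1.11 in animal 103 to -0.48 in animal 202. The counts of the step depended on animals 101 and 107: without animal 107, 4 of the 82 passed the FDR threshold and 0 the call, and without animal 101, 7 and 1 did.

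**Figure D4:**
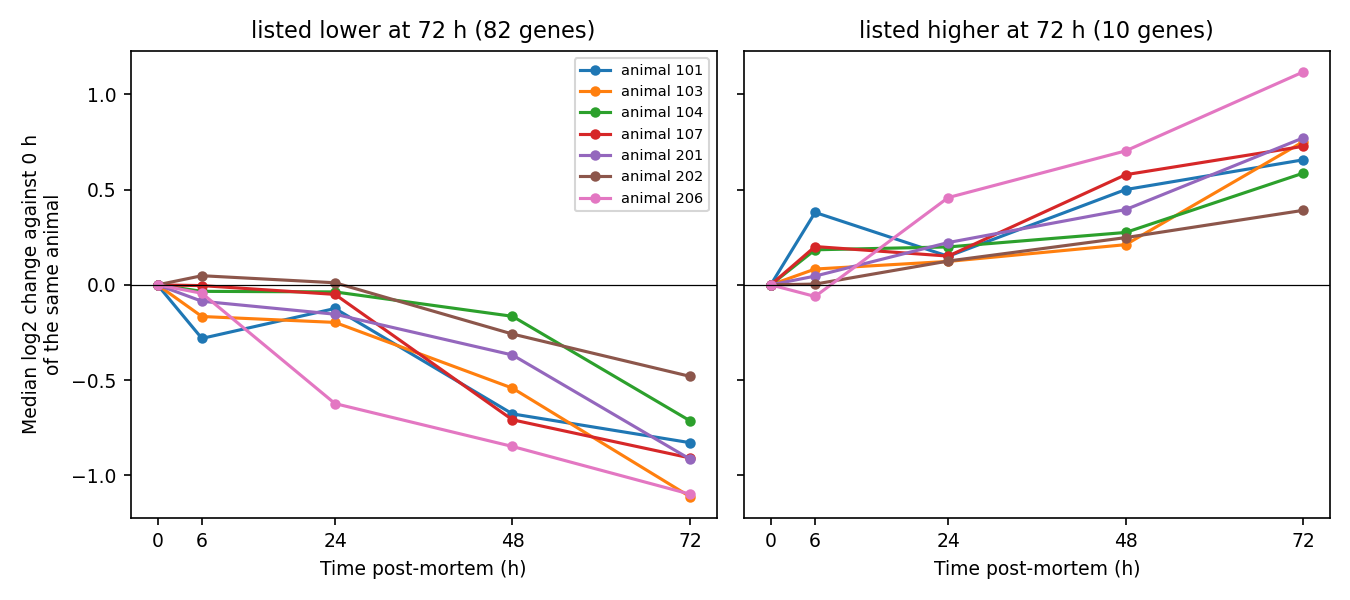
Median log2 change against the animal's own 0 h sample (y axis) by time *post-mortem* (x axis, h) over the 82 genes listed as lower (left) and the 10 listed as higher (right), 1 line for each of the 7 animals. Animal 206 stands apart at 24 h (-0.62 on the left), and by 72 h all 7 animals lie between -1.11 and -0.48 on the left.

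The zinc finger genes can be set beside the other genes chosen by the same contrast. The 1917 other genes on the copy of the 72 h list of lower genes had a median log2 fold change of -0.96 at 72 h, against -0.83 for the 82. From 24 h to 48 h the medians were -0.35 and -0.33, and 51.9% of the others against 52.4% of the 82 passed the FDR threshold. With the fold change threshold the shares were 12.9% and 7.32%. The median level of the others was 9.44 CPM and that of the 82 was 3.92 CPM. These differences were not tested. In direction, 10 of the 93 members called at 72 h were higher (10.8%), against 1434 of all 3690 genes called (38.9%). The rule used that contrast, and the split is given as a description.

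The fold change threshold of 1.5 cut through the members. Just inside it at 72 h lay *ZBTB33* (-0.59) and *ZBTB14* (-0.60, SE 0.11), and just outside it *ZNF660* (-0.52, SE 0.19) and *ZNF814* (-0.43, SE 0.24). Of the 4 genes listed at 48 h only, 2 were lower at 72 h at an FDR below 0.05, so a gene outside the threshold need not have passed the FDR. *ZNF469* was called lower at 72 h in the refitted data (log2 fold change -0.74) but had no entry in the copy of the 72 h list used here. That copy was ordered by FDR and lacked 257 entries. Of the 2256 genes called lower at 72 h, 188 had no entry on any list of the copy, the lowest adjusted p among them by edgeR being 0.0015. Zinc finger genes with a weaker result at 72 h may therefore be missing from the members.

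Partners of these proteins and other C2H2 factors were looked up on the same lists, so that a gene with a value is one that was listed. Of 9 genes of the KRAB corepressor complex, *ATF7IP* and *CBX5* carried a symbol. *ATF7IP*, a cofactor of SETDB1, had a log2 fold change of -0.83 (SE 0.09) at 72 h, and *CBX5*, heterochromatin protein HP1 alpha, had -0.67 (SE 0.08). Both fell from 24 h to 48 h, by 0.39 and 0.41 on the log2 scale (adjusted p = 0.0039 and 0.0030 by edgeR), without passing the fold change threshold. Of 6 BTB partners, *CUL3*, the scaffold of BTB-adaptor ubiquitin ligases, had -0.72 (SE 0.08) at 72 h, and its step from 24 h to 48 h, -0.17 (SE 0.08), did not pass the test (adjusted p = 0.16 by edgeR). Of 33 other C2H2 factors, 10 carried a symbol, and 7 were called lower and 1 higher at 72 h. Among them *SP4*, of the family closest to the KLF proteins, had -1.29 (SE 0.15), *REST*, a repressor of neuronal genes, had -0.76 (SE 0.08), and *GFI1* had 0.59 (SE 0.24). *BCL6B* had -0.62 at 6 h and -0.11 at 72 h. Of 11 immediate early genes, the 4 with a symbol (*FOS*, *JUNB*, *ATF3* and *IER3*) were all called higher at 72 h, opposite in direction to most zinc finger genes.

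Markers of other cells also differed over the 72 h, some of them at other time points than the members. Of 6 macrophage markers, 4 carried a symbol, and their summed level was 27.2 to 87.5 CPM at 0 h and 11.1 to 31.0 CPM at 72 h. The 8 adipocyte markers summed to 98.2 to 153.9 CPM at 24 h and 53.5 to 145.2 CPM at 72 h. From 6 h to 24 h, 7 of the 8 were called lower, where 0.54% of all genes tested were and no member was. From 48 h to 72 h, 0 of the 8 were called. *ADIPOQ* went from a median of 27.7 CPM at 0 h to 0.206 CPM at 24 h and 0.135 CPM at 72 h. In the step from 24 h to 48 h, 2 of the 4 macrophage markers were called lower, *CD163* by -1.12 (SE 0.20, adjusted p = 0.0013 by edgeR) and *CSF1R* by -0.82 (SE 0.19, adjusted p = 0.0051). In the same step both erythroid markers with a symbol, of 5, were called higher, *HBB* by 3.71 (SE 0.77, adjusted p = 0.0033 by edgeR) and *HBA* by 3.58 (SE 0.72, adjusted p = 0.0029). Their summed level was 0.120 to 6.76 CPM at 24 h and 0.126 to 72.2 CPM at 48 h. Of the 12 T and NK cell markers 1 was called higher in this step, and of the 8 adipocyte markers none was called. The part of these cells in the members' values was not tested.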

How the data were processed

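The authors trimmed reads (Trimmomatic 0.39), checked them (FastQC 0.11.8), mapped them with STAR 2.7.0f to the bovine assembly ARS-UCD1.2 and counted them per Ensembl gene with featureCounts 1.6.4. They deposited raw counts, not normalized or filtered, for 27607 genes and 35 samples. The sources name the library kit and the strand setting in different ways, so whether antisense reads were separated is uncertain. The table has no symbols; these came from the study's lists, whose fold changes and p-values were not used. Members and gene lists were chosen with earlier results of these data known.

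The filter filterByExpr, grouped by time point (minimum count 10), left 14630 genes, which were normalized by TMM and fitted in edgeR 4.0.16 (R 4.3.3), with time point and animal as a block. Time points were compared by its quasi-likelihood test, the p-values adjusted after Benjamini and Hochberg for all 14630 genes. Calls needed an FDR of less than 0.05 and a fold change of more than 1.5. Standard errors are the log2 fold change divided by the square root of the F statistic. Changes within an animal used log2 CPM with a prior count of 2. The scripts were tested on simulated data. Samples are paired by animal number, since each number is 1 carcass sampled 5 times. Their deviations from the mean of a time point correlated within animals (median r 0.578, 70 of 70 pairs over 0.1). Between animals the median r was -0.105, and 20 of 420 pairs lay over 0.1. Subtracting a mean over the same animals by itself lowers the correlation between animals, so nothing is read from that value.

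Genes named were all KLF members, members on a 6 h list or listed as higher, the 5 ZBTB and 10 other members lowest at 72 h (mean of at least 1 CPM, same direction in 7 animals), those called in a step, those at the threshold and the 3 with the highest CPM; *ZNF322*, *ZNF469*, *ZNF793*, *ZKSCAN8*, *ZNF385B*, *ZFP14*, *ZFP82* and *ZSCAN20* were added after their values were seen. Alternatives were DESeq2 1.42.0, other size factors and filters, no block, thinned counts, other thresholds and leaving out each animal. No levels were compared per length, and no sequence or coordinate is given, because no genome of this build was used here.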

Additional observations from a re-analysis of the deposited data

Results flagged for a closer look

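The named genes at each time point and the medians within animals gave 196 groups of 7 samples, in which 10 samples stood apart from the other 6 (a gap to the nearest other sample, divided by the whole range, above Dixon's 95% critical value for 7 samples). Chance gives about 1 in 20 groups. Animal 206 gave 7 of the 10. At 24 h its median change over the 82 genes listed as lower was -0.62 against 0 h (median of the other animals -0.09) and -0.62 against 6 h (-0.04), and over the 10 genes listed as higher it was 0.46 against 0 h (0.15). At 24 h it also had the lowest *ZBTB44*, 8.35 CPM, and *ZNF248*, 4.84 CPM, where the other animals had medians of 16.2 and 7.88 CPM. At 48 h it had the lowest *ZNF81*, 0.0499 CPM, and the highest *ZNF428*, 5.69 CPM, against 0.238 and 3.83 CPM. The remaining 3 were *KLF12* at 0 h in animal 104 (1.18 CPM, others 1.86), *ZBTB6* at 6 h in animal 101 (1.51 CPM, others 2.59) and *ZBTB6* at 72 h in animal 202 (1.21 CPM, others 0.788).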

How the results depend on the processing

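Counts of members called were within 1.5 times of the reported ones with DESeq2, RLE size factors, no filter and a fit of the 14 samples of each pair of time points. With the FDR threshold alone, members at 24 h numbered 3 higher and 8 lower, where 4.07% and 2.64% of all genes tested passed. At 48 h they numbered 10 and 81 (21.9% and 23.5% of all genes). In the step from 24 h to 48 h, members on the 72 h lists numbered 5 and 43 (9.56% and 9.84%). From 24 h to 72 h, 1 of the 6 h genes rose (29.8% of all genes). Shares over all genes were not computed for the other alternatives. Tested against a fold change of 1.5, 0 were called at 6 h, at 48 h and in the step, and 3 higher and 45 lower at 72 h. Without the replicate block, which is the animal, 0 were called lower at 6 h and 0 in the step, also with the FDR alone (0 in both directions). The block changed no other count by over 1.5 times. With a filter of 1 CPM in 7 samples, 1 was called at 6 h. In counts thinned to the smallest library, 1 was called lower at 6 h, 19 at 48 h and 3 in the step (14 with the FDR alone, chosen after seeing the data), and 1 of the 6 h genes was called higher from 24 h to 72 h. With no filter, 3 rose in the step with the FDR alone. Leaving out 1 animal gave 1 to 2 called lower at 6 h, 20 to 37 lower and 2 to 3 higher at 48 h, 76 to 84 lower and 7 to 10 higher at 72 h, and 0 to 10 lower in the step, or 4 to 53 lower and 1 to 6 higher with the FDR alone. The 20 at 48 h came without animal 101 and the 10 in the step without animal 104. The cause of these changes was not tested. Over 571 values of named genes under alternatives, 520 kept direction and call, 51 lost the call and 0 reversed. Of the members, 10 had a mean below 1 CPM. The planned count over all zinc finger genes of the reference was not run, because the table used does not pair symbols with Ensembl identifiers.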
